A study of Arabidopsis thaliana with 103 samples.

Results

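The comparison set the 3 mom2-2 libraries against 6 phd1 libraries, of which 3 were phd1-2 and 3 were phd1-4. These are 9 of the 42 RNA-seq libraries analysed here and 9 of the 103 samples of the series, which studied the MOM1 complex of Arabidopsis thaliana and its part in silencing DNA-methylated sequence. All 9 libraries came from whole seedlings of the Col-0 ecotype, 12 days old, grown with 16 h of light and 8 h of dark. The mutants were put side by side because their circadian clock genes sit at a shared offset from the Col-0 control.

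The mom2-2 plants carry a T-DNA insertion (line SAIL_548_H02) in MOM2. The phd1-2 and phd1-4 plants carry an insertion of a single T made by Cas9 under the YAO promoter, in exon 2 of PHD1 in phd1-2 and in exon 3 in phd1-4, each followed by an early stop codon. A further T-DNA line of the same gene, mom2-1 (WiscDsLox364H07), and its Col-0 control, each with 3 libraries of 12-day seedlings, are given beside the main values. Each mutant is 1 line. The study states for its experiments in general that replicates were done independently, while the labels do not say that these libraries came from separate sowings, so p-values measure the spread between these libraries, which may be technical. In whole seedlings, fewer cells of a type and less RNA per cell cannot be told apart.

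MOM1 is a plant nuclear protein that keeps transposons and other DNA-methylated sequences silent, largely without changing their methylation. It works in a complex with the SUMO ligases PIAL1 and PIAL2, with AIPP3, which carries a BAH domain, and with PHD1, which carries a PHD finger. MOM2 is a shorter homolog of MOM1 that lacks much of it. The complex meets the RNA-directed DNA methylation pathway, in which the polymerase Pol V makes scaffold transcripts, and the MORC ATPases, which compact chromatin.

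The designed sequences below mark the mutated sites that define the groups. Guide sequences are given with the genomic PAM, the motif Cas9 needs next to its target, in capitals. All 3 guides matched the TAIR10.1 genome once, on the plus strand of PHD1 (AT1G43770, chr1:16548417-16551909, plus strand), and are shown 5′ to 3′.
PHD1 guide 1: gagtagaaatcaaccccttgTGG
PHD1 guide 2: gagcatcaatcattcgccacCGG
PHD1 guide 3: gtatgtttgagtctattcacCGG
Guide 3 lies in exon 2 (chr1:16548688-16548707), the exon mutated in phd1-2. Guides 1 and 2 lie in exon 3 (chr1:16548943-16548962 and chr1:16549219-16549238), the exon mutated in phd1-4. All 3 targets are coding sequence. The genotyping primers of the MOM2 T-DNA lines, which flank the insertions, also matched once each.
mom2-2 left primer: ttctttaccaaaagcgcagag
mom2-2 right primer: gtcgctgtttagctcatttgc
mom2-1 left primer: tttggttgccaatgtaaaacc
mom2-1 right primer: cagtcgttttcaagaagcagc
MOM2 is AT2G28240 (chr2:12039208-12042175, plus strand). The mom2-2 primers span chr2:12039681-12040831, from coding sequence in exon 2 to an intron. The mom2-1 primers span chr2:12038875-12040015, from upstream of the annotated gene to an intron.

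The 9 libraries held 13164594 to 22894599 expected counts (median 17281624), and any pair of them correlated at r = 0.973 to 0.989 over log2 CPM (counts scaled to equal library totals) of tested features. A feature entered the test where it reached 1 CPM in at least 2 of the 9 libraries, which left 19932 of 64790 features, 160 of them transposable elements (TEs). A called feature is one that changed by 2-fold or more with an adjusted p below 0.05. Against Col-0, 3463 of 20096 tested features passed the adjusted p in mom2-2, 3838 in phd1-2 and 4515 in phd1-4 (edgeR). Of these, 661, 643 and 723 were called. In mom2-1 against Col-0, 7 of 19740 passed. Col-0 values below are thus read across a wide offset of the 9 libraries, whose source was not tested. Samples with the same replicate number deviated together, so that each test was also run with the number as a block, and the blocked value is given where it changes a result. Leaf photosynthesis genes summed to 22180 to 25310 CPM in mom2-2 and 23200 to 26960 CPM in the phd1 libraries. Root hair markers summed to 26.3 to 37.4 CPM in mom2-2 and 21.1 to 32.3 CPM in phd1, flower markers stayed at or under 0.92 CPM in every one of the 9, and the senescence marker SAG12 was at 0.

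MOM2 was the one mutated gene whose RNA differed. It stood at 1.28, 1.61 and 2.25 CPM in mom2-2, against 5.45, 7.12 and 5.75 CPM in phd1-2 and 3.41, 4.63 and 5.34 CPM in phd1-4. No mom2-2 library reached the lowest phd1 library. The log2 fold change was -1.66 ± 0.20 (SE, n = 3 against 6, edgeR quasi-likelihood test, Benjamini-Hochberg adjusted p = 0.027). Per transcript length, MOM2 averaged 0.877 ± 0.253 TPM in mom2-2 and 2.70 ± 0.642 TPM in phd1 (SD, n = 3 and 6), so part of the RNA was still counted in mom2-2. The other T-DNA line left less of it, at 0.0998, 0 and 0.0991 CPM in mom2-1 against 6.44, 6.39 and 7.33 CPM in Col-0.

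PHD1 RNA did not separate the groups. It measured 6.21, 5.30 and 5.01 CPM in mom2-2, against 6.28, 5.11 and 4.15 CPM in phd1-2 and 5.84, 5.32 and 4.68 CPM in phd1-4. These levels overlap in all 3 genotypes (log2 fold change 0.04 ± 0.14, edgeR adjusted p = 0.957). An insertion of 1 base need not lower the RNA, so this level does not check the phd1 labels. The other members of the complex, MOM1, PIAL1, PIAL2 and AIPP3, had log2 fold changes between -0.10 and 0.03, and MOM2 was the only one of 6 members to pass the adjusted p. The partners that AIPP3 has outside the complex, PHD2, PHD3 and CPL2, had log2 fold changes between -0.12 and 0.09, and neither they nor any of the 6 tested MORC genes passed in edgeR, in DESeq2 or in limma-voom, with 0 of these 9 under an unadjusted p of 0.05 in edgeR.

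**Figure D1:**
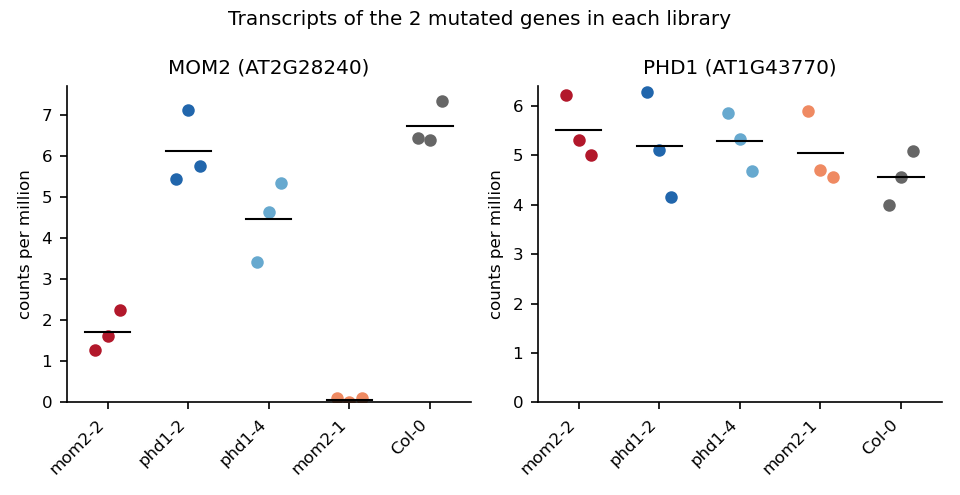
MOM2 and PHD1 in CPM (y axis) in each library of mom2-2, phd1-2, phd1-4, mom2-1 and Col-0 (points, 3 libraries a group, with the mean as a line). The 3 mom2-2 libraries sit at 1.28 to 2.25 CPM for MOM2, under all 6 phd1 libraries (3.41 to 7.12), while PHD1 overlaps across the mutants.

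The 2 kinds of mutant differed at few features. Of 19932 tested, 8 were called (0.0401%), 6 higher (0.0301%) and 2 lower (0.01%) in mom2-2, and 7 of the 8 had no overlap between the 3 mom2-2 and 6 phd1 libraries. Over all tested features, 5.79% had no overlap. With the replicate number as a block, 41 were called (0.206%), 17 higher (0.0853%) and 24 lower (0.12%), including all 8. Leaving out 1 library gave between 2 calls (without mom2-2 replicate 1) and 15 (without phd1-2 replicate 1). AT1G43590 and AT1TE54100 passed whichever library was left out, and AT5G26270 missed the threshold only without mom2-2 replicate 1. The other 5, MOM2 among them, missed it without mom2-2 replicate 1, without mom2-2 replicate 2 and without 1 or more of the phd1 libraries, with unchanged direction. Besides MOM2, the called features were a pseudogene, a TE, a gene with no named function (AT5G26270), the defence-linked transcript MRD1, a lectin gene, a cytochrome P450 and an Agenet domain gene.

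The pseudogene AT1G43590 (chr1:16414121-16414627) was almost silent in the phd1 lines and in Col-0. It stood at 3.87, 4.36 and 3.45 CPM in mom2-2, against 0, 0.131 and 0.0857 CPM in phd1-2 and 0, 0.228 and 0.205 CPM in phd1-4. Every mom2-2 library was far above every phd1 library, with 216.6 expected counts summed over 3 mom2-2 libraries and 11.98 over 6 phd1 libraries (log2 fold change 5.06 ± 0.39, edgeR adjusted p = 0.00196). Col-0 had 0.290, 0.240 and 0.135 CPM, close to phd1. The mom2-1 libraries did not share the mom2-2 level, at 0.815, 0.0263 and 0.265 CPM.

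The element AT1TE54100 followed the same pattern. Its position was not analysed here, so whether it overlaps AT1G43590, in which case reads of 1 transcript would count for both, was not tested. It measured 3.04, 3.15 and 2.68 CPM in mom2-2, against 0, 0 and 0.127 CPM in phd1-2 and 0.289, 0 and 0.123 CPM in phd1-4 (log2 fold change 5.15 ± 0.46, edgeR adjusted p = 0.00288). Its mom2-1 libraries stood at 0.333, 0.129 and 0.230 CPM, against 0.0888, 0 and 0.101 CPM in Col-0. Among the other mutants of the series, both features also stood above Col-0 in nrpe1-11, a Pol V mutant, and in morc6-3, a mutant of a MORC ATPase. AT1G43590 reached 1.49 to 2.40 CPM in nrpe1-11 and 1.94 to 2.70 CPM in morc6-3, and AT1TE54100 reached 1.19 to 1.56 and 1.29 to 1.90 CPM in those mutants. In each case the mom2-2 libraries were higher still, a description with no test. Related mutants did not all share this. In morchex, which is mutated in several MORC genes including MORC6, AT1G43590 was at 0.239 to 0.457 CPM and AT1TE54100 at 0 to 0.156 CPM. In pial1/2, the PIAL1 and PIAL2 double mutant, they were at 0 to 0.427 and 0 to 0.451 CPM.

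AT5G26270 was higher in mom2-2 without overlap. It stood at 11.0, 8.62 and 9.89 CPM in mom2-2, against 1.14, 1.27 and 1.81 CPM in phd1-2 and 3.36, 1.14 and 2.30 CPM in phd1-4 (log2 fold change 2.40 ± 0.24, edgeR adjusted p = 0.00566). The mom2-1 libraries had 5.04, 7.18 and 4.16 CPM, against 1.60, 4.28 and 1.58 CPM in Col-0, a log2 difference of 1.18 that did not pass the adjusted p. The lectin-like gene AT1G60110 was also higher, at lower counts. Its levels were 2.73, 2.21 and 3.44 CPM in mom2-2, against 1.02, 0.886 and 0.745 CPM in phd1-2 and 0.233, 0.532 and 0.972 CPM in phd1-4 (log2 fold change 1.88 ± 0.29, edgeR adjusted p = 0.0486). The groups did not overlap, and mom2-1 lay above Col-0 by 1.36 on the log2 scale, again without passing. Neither rise was seen in mom2 lines alone, by group means with no test. AT1G60110 averaged 6.48 CPM in nrpe1-11, 4.04 in morc6-3 and 3.33 in pial2-1, a PIAL2 mutant, but 0.905 in pial1-2, a PIAL1 mutant. AT5G26270 averaged 16.04 CPM in morchex, a mutant of several MORC genes, and 8.19 in pial2-1, but 1.465 in pial1-2.

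CYP82C2, a cytochrome P450 of indolic defence compounds, was higher in mom2-2. It had 4.18, 3.73 and 6.51 CPM in mom2-2, against 1.14, 1.05 and 1.28 CPM in phd1-2 and 2.26, 2.51 and 1.69 CPM in phd1-4 (log2 fold change 1.56 ± 0.21, edgeR adjusted p = 0.0276). Col-0, at 1.81, 4.76 and 4.16 CPM, overlapped mom2-2. A second Col-0 set of the series, the control for nrpe1-11, was at 0.2442 to 2.43 CPM, below all 3 mom2-2 libraries. Col-0 without that mention is the first set. AT5G52070, which encodes an Agenet domain protein, was the only called gene besides MOM2 that was lower. It had 4.99, 6.22 and 6.51 CPM in mom2-2, against 11.1, 13.2 and 11.0 CPM in phd1-2 and 10.5, 11.5 and 12.1 CPM in phd1-4 (log2 fold change -1.01 ± 0.11, edgeR adjusted p = 0.00928). Col-0 was at 8.67, 6.44 and 7.76 CPM, below all 6 phd1 libraries, and mom2-1 was at 4.74, 5.48 and 4.51 CPM. The second Col-0 set was at 16.57 to 19.46 CPM, above all 6 phd1 libraries, so the relation to wild type depends on the set.

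MRD1 (AT1G53480) was called although it did not separate mom2-2 from both alleles. It measured 32.5, 36.0 and 35.2 CPM in mom2-2 and 34.9, 35.2 and 34.8 CPM in phd1-2, but 0, 0 and 1.88 CPM in phd1-4. The difference from both alleles together was 2.71 ± 0.35 on the log2 scale (edgeR adjusted p = 0.027), and it rested on phd1-4 alone. Against phd1-2 the adjusted p was 0.995, and against phd1-4 it was 0.00915. Between the phd1 lines, phd1-4 was below phd1-2 with a log2 fold change of -5.49 (edgeR adjusted p = 0.0147). Col-0 was intermediate at 18.8, 14.5 and 13.6 CPM, and mom2-1 was nearly silent at 0.407, 0.0656 and 0 CPM. Such a split was not limited to phd1 and mom2 lines, by group means with no test. MRD1 averaged 0.0456 CPM in aipp3-1 but 36.78 in aipp3-2, both AIPP3 mutants. It averaged 0.0243 CPM in pial1-2, 15.19 in pial1/2 and 37.19 in morchex. MRD1 overlaps HEI10, a gene for a meiotic crossover ligase, over 1446 bp, so that reads there may be split between them. HEI10 had 5.10, 5.11 and 6.60 CPM in mom2-2, 5.06, 6.20 and 5.93 CPM in phd1-2 and 0.926, 1.52 and 3.04 CPM in phd1-4.

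**Figure D2:**
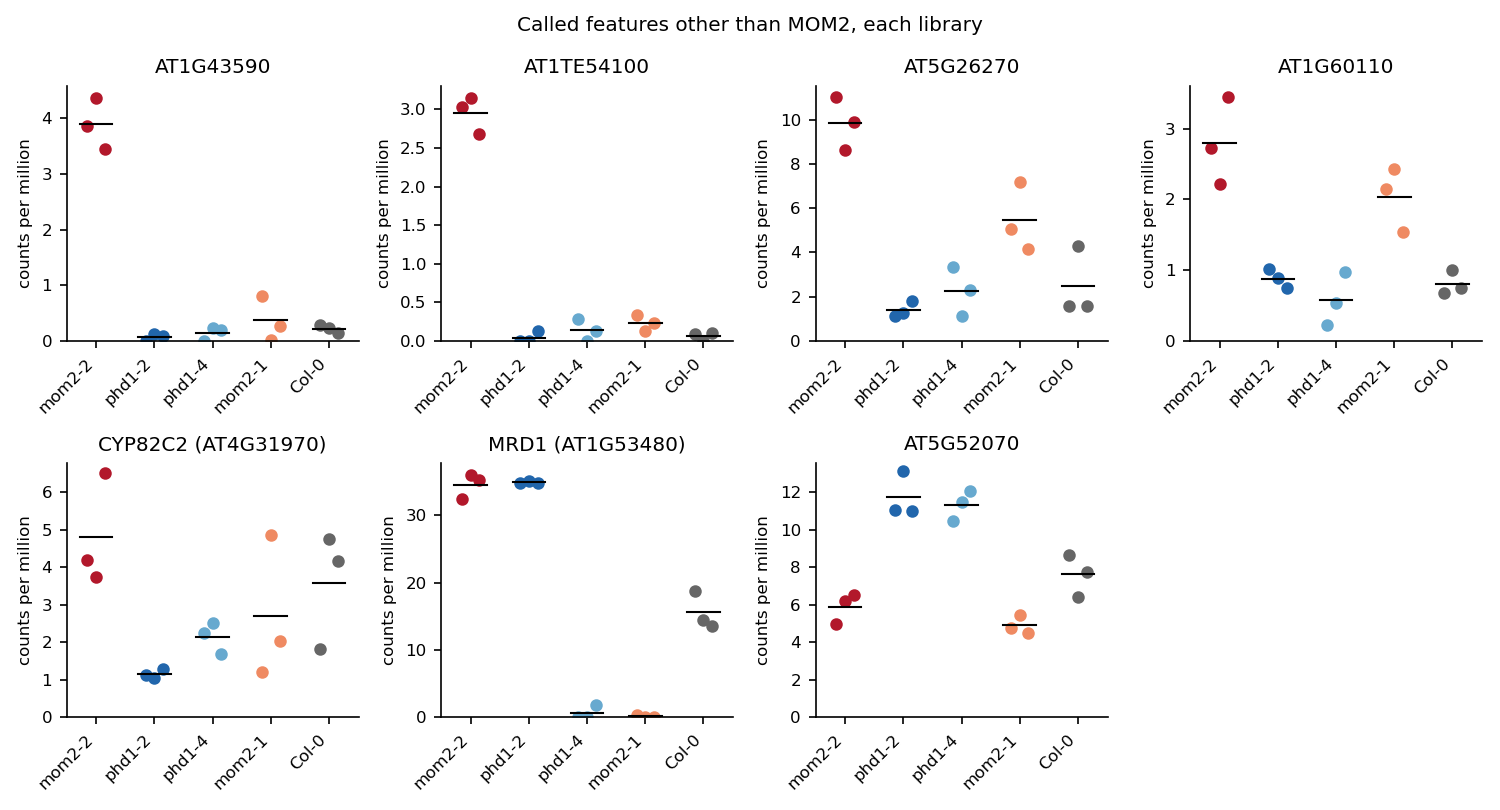
The 7 called features other than MOM2 in CPM (y axes, linear) in mom2-2, phd1-2, phd1-4, mom2-1 and Col-0, with 1 point per library and the mean as a line. AT1G43590 and AT1TE54100 are at 2.68 CPM or above in mom2-2 and at 0.289 CPM or below in the phd1 libraries, and MRD1 splits the phd1 lines.

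A further 19 genes passed the adjusted p with a change under 2-fold, and all 19 were higher in mom2-2. Together with the called features, 27 passed (0.135% of those tested), 25 higher (0.125%) and 2 lower (0.01%). Leaving out 1 library moved the 27 to between 3 (without mom2-2 replicate 1) and 63 (without phd1-4 replicate 2), and it fell to 12 or fewer without any one library other than phd1-2 replicate 1 (35) and phd1-4 replicate 2. The log2 fold changes of the 19 ran from 0.40 for HKL1, a hexokinase-like protein, to 0.83 for AT2G39530, a CASP-like membrane protein. In all 19 the lowest mom2-2 library stood above the highest phd1 library. No Col-0 library enters this test, and for several of the genes Col-0 lay at the mom2-2 level.

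ROS1, the DNA glycosylase that removes methylated cytosine, was among them. It stood at 54.8, 55.5 and 56.0 CPM in mom2-2, against 35.5, 39.0 and 40.3 CPM in phd1-2 and 40.2, 44.1 and 43.2 CPM in phd1-4 (log2 fold change 0.42 ± 0.06, edgeR adjusted p = 0.0276). Col-0 was at 43.7, 51.6 and 45.3 CPM, below all 3 mom2-2 libraries. The second Col-0 set, the control for nrpe1-11, was at 50.27 to 59.43 CPM, a range that holds the mom2-2 values. The mom2-1 libraries, at 66.1, 62.6 and 56.5 CPM, were above all 3 of the first Col-0 set. This log2 difference of 0.42 did not pass the adjusted p in its own comparison.

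Of the berberine bridge enzyme-like genes, FAD-linked oxidases of the cell wall and of defence, 3 passed, each higher in mom2-2 than in phd1. AT1G30720 had 30.2, 29.7 and 28.8 CPM in mom2-2, against 17.8, 17.2 and 18.4 CPM in phd1-2 and 15.3, 18.4 and 17.7 CPM in phd1-4 (log2 fold change 0.72 ± 0.06, edgeR adjusted p = 0.00198). AT1G30700 and AT1G30730 had log2 fold changes of 0.73 and 0.66 (edgeR adjusted p = 0.027 and 0.0323). Reads may be shared between such related sequences, so the values of each are uncertain. In Col-0, AT1G30720 was at 23.1, 33.6 and 35.5 CPM, a range that holds the mom2-2 values and lies above all 6 phd1 values.

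The others include enzymes of the cell wall and of defence compounds. AT3G01190, a class III peroxidase, had 93.5, 91.9 and 107.4 CPM in mom2-2, against 63.9, 66.0 and 63.3 CPM in phd1-2 and 50.5, 67.2 and 63.1 CPM in phd1-4 (log2 fold change 0.61 ± 0.08, edgeR adjusted p = 0.027). BGLU22, a beta-glucosidase, had a log2 fold change of 0.75 and the expansin EXPA9 one of 0.55. CYP81F4, which modifies indole glucosinolates, stood at 0.43 and AT1G77330, an ACC oxidase of ethylene synthesis, at 0.49. The root hair markers had a median log2 fold change of 0.262 (4 tested) and the endodermis markers one of 0.212 (2 tested). None of these 6 passed in edgeR, DESeq2 or limma-voom, and 1 was under an unadjusted p of 0.05 in edgeR. With the block 2 root hair markers and 1 endodermis marker were under that p, all higher. Endodermis markers summed to 29.0 to 37.0 CPM in mom2-2 and 19.3 to 33.0 CPM in phd1, and the part of root content in these genes was not tested.

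**Figure D3:**
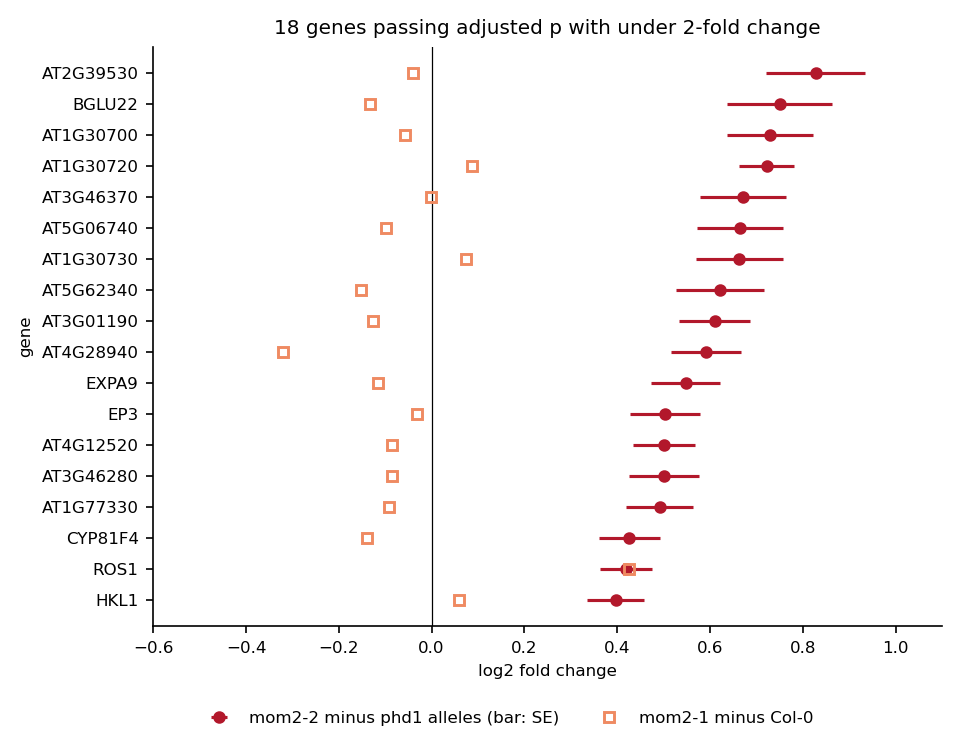
Log2 fold change (x axis) of 18 of the 19 genes that passed the adjusted p with under 2-fold change, for mom2-2 minus the phd1 lines (filled points, bar 1 SE) and for mom2-1 minus Col-0 (open squares). All 18 filled points lie between 0.40 and 0.83, and among the open squares ROS1 stands at 0.42, near its mom2-2 value.

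These features were then read in the other mom2 line, mom2-1. Of the 27, 24 other than MOM2 were tested in mom2-1 against Col-0, and 7 of them (29.2%) had the same sign there as in mom2-2 against phd1. Over all features tested in both, 7883 of 19590 (40.2%) had the same sign. None of the 24 passed in mom2-1 with the same sign in edgeR, although 4 of the 24 had that sign at an unadjusted p under 0.05, against 183 of 19590 over all features, and MRD1 passed with the opposite one. The mom2-1 comparison itself had 7 features called (0.0355%) and 537 under an unadjusted p of 0.05, and it used libraries that the comparison of mom2-2 with phd1 did not.

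With the replicate number as a block, 315 features passed the adjusted p (1.58%), 234 higher (1.17%) and 81 lower (0.406%) in mom2-2. This count ran from 35 without mom2-2 replicate 3 to 476 without phd1-4 replicate 2, and was 79 without phd1-4 replicate 3, 89 without phd1-2 replicate 3, 97 without phd1-4 replicate 1 and 127 without mom2-2 replicate 1. Of these, 33 were called in addition to the first 8, 11 higher and 22 lower. Those named below were chosen after their values were seen. Without the block their adjusted p ran from 0.0621 to 0.568. They include genes of low-oxygen metabolism, of defence and of sugar conjugation. Of the 41 features called with the block, 28 had no overlap between the groups, against 5.79% over all tested. Of 32 of the 41 tested in mom2-1, 16 had the same sign there and 1, AT5G24240, also passed.

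Of the 33, 7 are low-oxygen genes, all lower in mom2-2. Plants turn these genes on when oxygen is short, through ERF-VII transcription factors, and their products run fermentation and sucrose breakdown. A list of 23 such genes was drawn up after their values were seen, so its counts are a description. Of 22 tested, 21 were below 0, with a median log2 fold change of -0.86 beside -0.00621 over all features. With the block 14 passed, all lower, and 7 were called. Without it 0 passed in edgeR, 17 were under an unadjusted p of 0.05, all lower, against 10.0% of all features. In DESeq2 8 of the 22 passed, among 179 features in all, and in limma-voom 0 did, among 31 in all. ETR2, an ethylene receptor, was the only one above 0, at 0.06.

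ADH1, the alcohol dehydrogenase of fermentation, had 48.9, 55.8 and 45.2 CPM in mom2-2, against 68.3, 137.7 and 161.0 CPM in phd1-2 and 80.3, 72.5 and 141.5 CPM in phd1-4. The mom2-2 libraries were all below the lowest phd1 library, and the phd1 libraries spread more than 2-fold. The log2 fold change was -1.17 ± 0.28 (edgeR adjusted p = 0.187) and, with the block, -1.11 ± 0.21 (edgeR adjusted p = 0.0301). HB1, a non-symbiotic haemoglobin, had 22.6, 26.3 and 23.7 CPM in mom2-2, against 27.2, 67.3 and 67.5 CPM in phd1-2 and 36.9, 38.6 and 71.6 CPM in phd1-4. SUS4, a sucrose synthase, had 27.4, 30.2 and 25.2 CPM in mom2-2, against 37.2, 72.7 and 89.5 CPM in phd1-2 and 39.8, 37.1 and 76.7 CPM in phd1-4. They had log2 fold changes of -1.08 and -1.05 with the block (edgeR adjusted p = 0.0312 and 0.0352), and in both the mom2-2 values lay close together while the phd1 values did not.

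PDC1, the pyruvate decarboxylase that feeds ADH1, stood at 24.0, 24.8 and 23.7 CPM in mom2-2, against 30.1, 60.9 and 74.2 CPM in phd1-2 and 34.9, 33.3 and 57.0 CPM in phd1-4. SAD6, a stearoyl-ACP desaturase, stood at 36.5, 38.5 and 37.1 CPM in mom2-2, against 57.3, 81.1 and 90.8 CPM in phd1-2 and 61.3, 52.9 and 81.2 CPM in phd1-4. It missed the adjusted p without the block (-0.96 ± 0.16, edgeR adjusted p = 0.065) and passed with it (edgeR adjusted p = 0.00622). AT4G33560, a wound-responsive family gene, had 7.54, 6.96 and 6.07 CPM in mom2-2, against 12.0, 18.17 and 21.9 CPM in phd1-2 and 13.0, 11.8 and 17.8 CPM in phd1-4. For each of these 3 the groups did not overlap.

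Between libraries of the same replicate number, 18 of the 22 genes were lower in mom2-2 in all 6 pairs. The list was drawn up after its values were seen, and the share over all features was not counted. This number is therefore a description of the chosen genes only. The median log2 difference within a pair was smallest for replicate 1 against phd1-2, at -0.30, and for replicate 2 against phd1-4, at -0.30, and largest for replicate 3 against phd1-2, at -1.21. The size thus varied with the phd1 library, and the summed level of the list ran from 335.7 to 387.8 CPM in mom2-2 and from 421.8 to 860.7 CPM in phd1. In Col-0 it was 633.7 to 718.4 CPM. Against Col-0 the median gene of the list was at -0.93 in mom2-2, 0.15 in phd1-2, -0.08 in phd1-4 and -0.14 in mom2-1. All 4 share the Col-0 libraries. The wild-type level itself varied between sets. ADH1 was at 98.42 to 99.88 CPM in this Col-0 set and at 13.84 to 31.25 CPM in the second, the control for nrpe1-11. The second range lies below the mom2-2 libraries (45.25 to 55.79 CPM), so a position of mom2-2 under wild type is not shown. When each library was left out in turn with the block, the number that passed ran from 0 without mom2-2 replicate 3 to 18 without phd1-2 replicate 1.

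**Figure D4:**
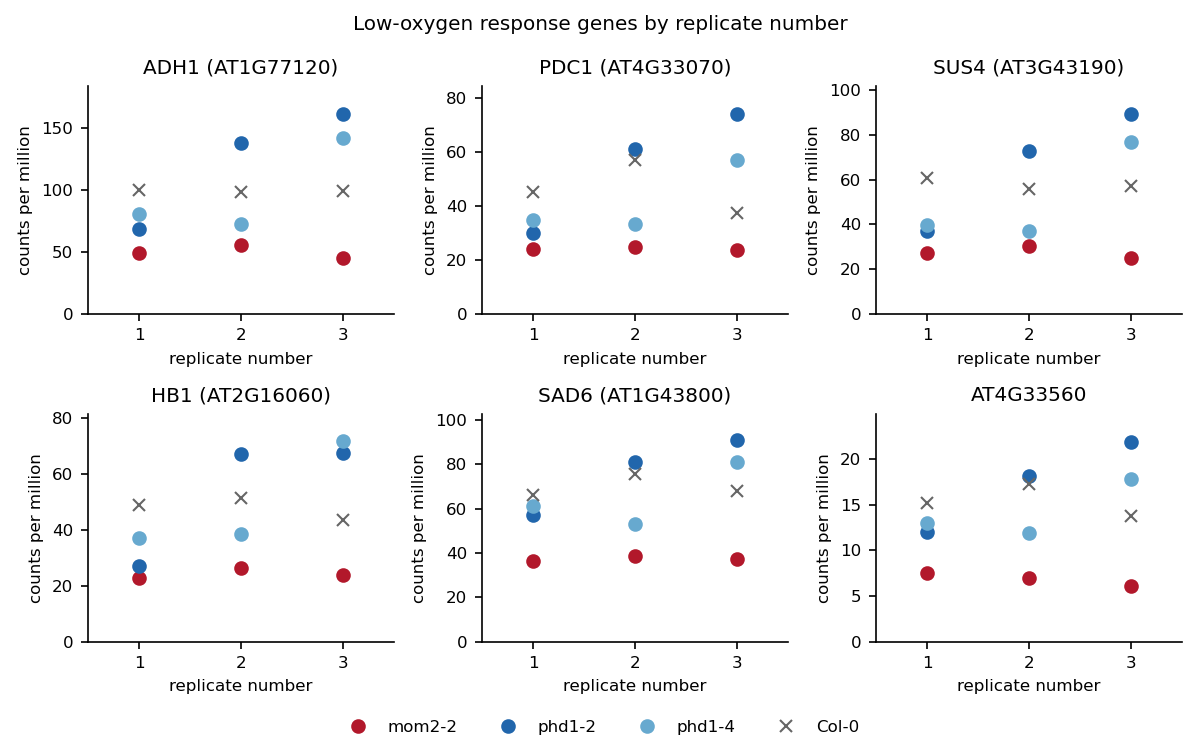
6 low-oxygen genes in CPM (y axis) against replicate number (x axis), 1 point per library of mom2-2, phd1-2, phd1-4 and Col-0. The mom2-2 libraries lie close together and lowest at each replicate number, as ADH1 shows at 45.2 to 55.8 CPM in mom2-2 and 68.3 to 161.0 CPM in phd1.

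Defence and conjugation genes among the features called only with the block had uneven levels across the phd1 libraries. PR2, a beta-glucanase of salicylic acid defence, had 0, 0 and 0.0626 CPM in mom2-2, against 47.0, 0.0437 and 3.20 CPM in phd1-2 and 2.08, 0.152 and 0.515 CPM in phd1-4, so 1 phd1-2 library carried most of the difference (edgeR adjusted p = 0.473 and, with the block, 0.00248). UGT74E2, a glucosyltransferase of an auxin precursor, had 4.35, 3.13 and 2.94 CPM in mom2-2, against 23.8, 6.64 and 15.2 CPM in phd1-2 and 8.91, 8.13 and 8.01 CPM in phd1-4, with no overlap (edgeR adjusted p = 0.111 and, with the block, 0.00786). BGLU18, a beta-glucosidase that releases abscisic acid, had 116.5, 130.1 and 115.2 CPM in mom2-2, against 423.3, 161.0 and 454.1 CPM in phd1-2 and 269.1, 149.8 and 187.7 CPM in phd1-4. All 3 mom2-2 libraries were below all 6 phd1 libraries.

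Among the genes called higher only with the block, GAT1_2.1, a glutamine amidotransferase-like gene, had 12.1, 5.97 and 8.21 CPM in mom2-2, against 3.67, 2.12 and 5.22 CPM in phd1-2 and 2.95, 3.12 and 2.65 CPM in phd1-4 (log2 fold change 1.39, edgeR adjusted p = 0.00704 with the block). AT5G24240 had 8.24, 2.26 and 1.94 CPM in mom2-2, against 1.08, 1.18 and 1.28 CPM in phd1-2 and 0.463, 1.14 and 0.843 CPM in phd1-4. The first mom2-2 library stood apart from the others. The same gene had 8.28, 6.30 and 3.91 CPM in mom2-1 against 0.926, 1.01 and 1.06 CPM in Col-0, a log2 fold change of 2.64 that passed the adjusted p there. High levels were not limited to mom2 lines. It was at 15.87 to 25.58 CPM in nrpe1-11. Of the AIPP3 mutants, aipp3-2 was at 7.633 to 9.552 CPM and aipp3-1 at 1.016 to 1.547 CPM, with no test.

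TEs did not separate the mutants as a class. Of 160 tested, 70 were above 0 and 90 below, with a median log2 fold change of -0.03, and 1 passed the adjusted p (2 with the block). At an unadjusted p under 0.05 there were 7 higher and 9 lower in mom2-2, against 10.0% of all features under that p in either direction. Summed over all TEs, the libraries held 855.2 to 943.7 CPM in mom2-2, 865.9 to 907.5 CPM in phd1-2, 817.8 to 953.3 CPM in phd1-4 and 902.9 to 953.9 CPM in Col-0, ranges that overlap between the mutants.

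SDC, a methylation-silenced F-box gene, fell under the filter. It had 0.986, 0.691 and 1.19 CPM in mom2-2, against 0.419, 0.262 and 0.533 CPM in phd1-2 and 0.116, 0.304 and 0.281 CPM in phd1-4. The groups did not overlap, but without the filter the log2 fold change of 1.58 had an edgeR adjusted p of 0.148. In mom2-1 it was at 1.55, 1.09 and 1.24 CPM, against 0.421, 0.288 and 0.433 CPM in Col-0. FWA, the other silenced gene examined, was at or below 0.188 CPM in all 9 libraries.

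Lists of pathways gave few changes. Of 213 genes on 20 lists, 193 were tested, and 2 of them (1.04%), MOM2 and ROS1, passed without the block, beside 0.135% of all features. MOM2 is the gene disrupted in mom2-2, so its passing follows from the genotype. It is counted in this share and in the blocked one, so neither shows that the lists changed more than other features. With the block 6 passed (3.11%), beside 1.58% of all features. The added genes were CLSY1, a chromatin remodeler of the RNA-directed DNA methylation pathway (13.9, 16.1 and 15.7 CPM in mom2-2, against 10.9 to 12.5 CPM in phd1), HSP70, PR2 and COR15B, a cold-regulated gene of the chloroplast. CLSY1 and HSP70 were higher in mom2-2, and COR15B and PR2 lower. The median log2 fold change of 15 of the 19 lists with a tested member lay within 0.2 of 0.

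The 17 genes of the RNA-directed DNA methylation pathway had a median log2 fold change of -0.04, with 1 passing with the block. The 15 maintenance methylation and demethylation genes, ROS1 among them, had a median of 0.04, and 12 of the 15 were above 0. The 18 photosynthesis genes had a median of -0.11, and 17 of them were below 0, but none passed in edgeR, in DESeq2 or in limma-voom, and none was under an unadjusted p of 0.05.

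The clock genes, by which the mutants were put together, lay alike in mom2-2 and phd1. Since a shared offset chose the groups, the values are given as a description and no test is read from them. The 21 genes tested had a median log2 difference of -0.04 between mom2-2 and phd1, with a range of -0.19 to 0.22. PRR9, a morning-phase repressor, had 36.1, 38.2 and 29.0 CPM in mom2-2, against 37.5, 35.2 and 27.7 CPM in phd1-2, 32.8, 35.7 and 30.9 CPM in phd1-4 and 9.54, 6.42 and 3.92 CPM in Col-0. CCA1, a morning activator and repressor of the loop, stood above Col-0 by 1.14 on the log2 scale in mom2-2, by 1.18 in phd1-2 and by 1.02 in phd1-4. TOC1, an evening gene, was below Col-0 at -0.63 in mom2-2, -0.70 in phd1-2 and -0.69 in phd1-4. These 3 differences share the Col-0 libraries.

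**Figure D5:**
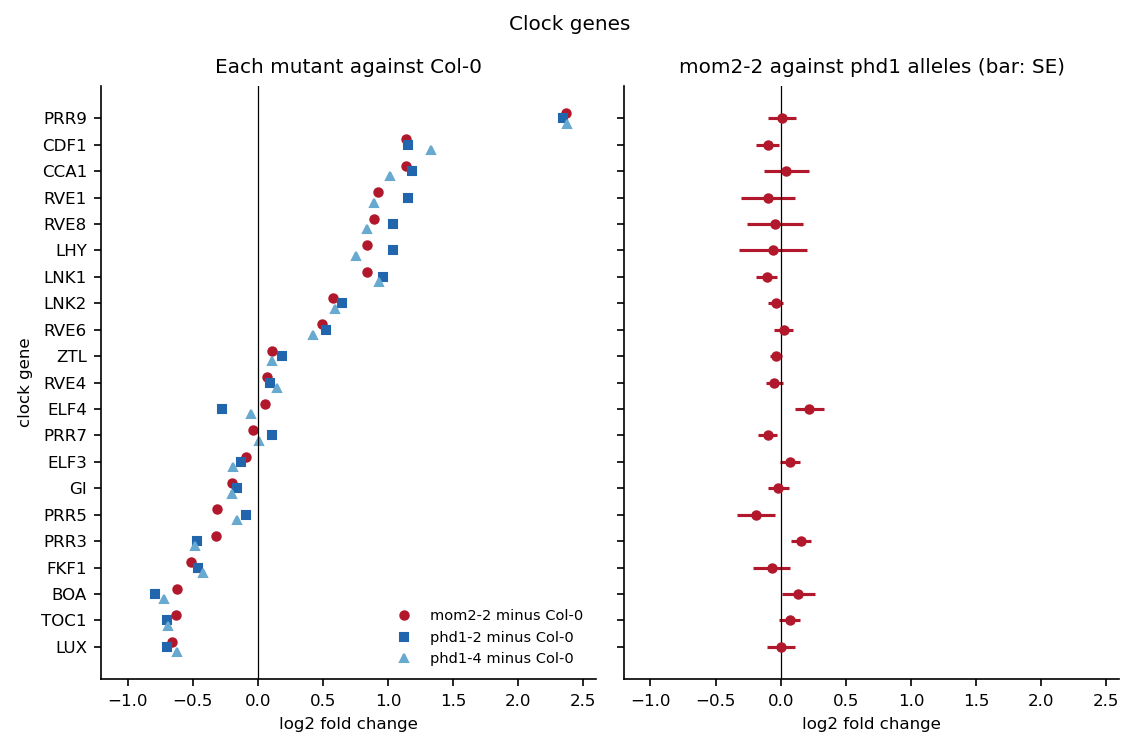
Log2 fold change (x axes) of 21 clock genes (y axis), on the left for mom2-2, phd1-2 and phd1-4 each minus Col-0 and on the right for mom2-2 minus the phd1 lines (bar 1 SE). The mutants sit close together on the left, as for PRR9 at 2.37 in mom2-2, 2.35 in phd1-2 and 2.38 in phd1-4, and on the right the genes lie between -0.19 and 0.22.

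The phd1 lines also differed from each other at a few features. Without the block 1 feature was called between phd1-4 and phd1-2 (0.00502%), and with it 11 were called (0.0552%), 4 higher (0.0201%) and 7 lower (0.0351%) in phd1-4. AT4TE32185 was at 3.70, 44.5 and 44.3 CPM in phd1-4 and at 0 in every library of phd1-2, mom2-2 and Col-0. HSP70, a heat-induced chaperone, had 35.3, 27.5 and 41.1 CPM in mom2-2, against 45.0, 27.3 and 43.5 CPM in phd1-2 and 13.9, 13.9 and 12.4 CPM in phd1-4, so its difference rested on phd1-4. HEI10 passed between the lines with the block (edgeR adjusted p = 0.0326), beside its overlapping neighbour MRD1.

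Positions of peaks of the complex were read beside the called genes. ChIP-seq peaks came from flower buds of tagged lines, a tissue other than the seedlings. Of the 7 called genes with coordinates, 5 had a MORC6-Myc peak in the gene or the 1000 bp upstream (26.2% of tested genes did), 5 had a PIAL2-Myc peak (25.4%), 2 had a PHD1-FLAG peak (8.63%) and 1 had an AIPP3-FLAG peak (22.7%). With the gene body alone the numbers were 4 for MORC6-Myc (17.2% of tested genes), 3 for PIAL2-Myc (18.9%), 1 for PHD1-FLAG (6.32%) and 1 for AIPP3-FLAG (19.8%). The larger set did not keep the MORC6-Myc and PIAL2-Myc shares of these 7 genes. Of 312 genes that passed the adjusted p with the block, 25% had a MORC6-Myc peak in the gene or upstream window. The shares were 21.8% for PIAL2-Myc, 12.5% for PHD1-FLAG and 17.3% for AIPP3-FLAG. The called gene with peaks of all 4 proteins was AT5G52070, whose strongest peaks had a −log10 q of 141.7 for PHD1, 59.8 for AIPP3, 81.5 for PIAL2 and 100.8 for MORC6. Among the genes that passed with under 2-fold change, ROS1 and HKL1 also had peaks of all 4. In the same order, −log10 q was 22.7, 3.09, 25.2 and 96.0 for ROS1 and 8.51, 11.5, 10.3 and 5.11 for HKL1.

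The called genes were not neighbours of the mutated loci. Of 20 genes within 10 genes of MOM2, 10 were tested and none passed in edgeR with or without the block, with 2 under an unadjusted p of 0.05. Of 20 around PHD1, 2 were tested, both under an unadjusted p of 0.05 in edgeR, and none passed without the block, while SAD6 passed with it. AT1G43590 lies 133789 bp from PHD1, 39 genes away.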

How the data were processed

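RNA-seq of whole seedlings was analysed for 3 mom2-2, 3 phd1-2 and 3 phd1-4 libraries, with 3 mom2-1 and 3 Col-0 libraries beside them. The authors aligned reads with Bowtie2 and estimated expression with RSEM, per the labels on TAIR10, and deposited a table per library of expected counts and TPM for genes and TEs. Of these estimated counts 95.79% were whole, and they were rounded before testing. The deposited ChIP-seq peak lists, called by the authors with MACS2, give −log10 q values.

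Counts were tested with edgeR 4.0.16 (R 4.3.3) quasi-likelihood fits after TMM scaling, with the contrast of mom2-2 minus the mean of the phd1 lines. Features with 1 CPM in at least 2 of the 9 libraries entered. In simulated counts over the 19932 features of this comparison, 99 of 100 features changed by 1.5 on the log2 scale were recovered without the block. In the same run 4 unchanged features were called. Changes were placed only in features with a mean of at least 2 CPM, and no effect of the replicate number was simulated. This share is therefore no measure of power in the real counts, where UGT74E2 missed the threshold at -1.73 (edgeR adjusted p = 0.111). Residuals of same-numbered libraries correlated at 0.153 to 0.41 in every pair and of different-numbered libraries at -0.331 to 0.0583, so the replicate number was used as a block. The numbers come from the labels, which do not say what they mark. Alternatives were RLE scaling, other filters, DESeq2 1.42.0, limma-voom 3.58.1, 2 groups, single phd1 lines, all libraries and leaving out each library. Named features are subunits of the complex, called features whose groups do not overlap (up to 10 genes and 3 TEs a direction, mean CPM at least 1), called list members and called neighbours of the mutated genes. Those below 2-fold, MRD1 and features called only with the block were added after their values were seen. The comparison, its members and the lists were chosen with earlier results of these data known. Sequences were matched to TAIR10.1. DNA methylation and other files were not used here. 1 gene of those below 2-fold is not reported here.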

Additional observations from a re-analysis of the deposited data

Results flagged for a closer look

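Of 40 features checked for a phd1 library standing apart from the other 5, 7 had one, where chance gives about 1 in 20 for independent checks. Most of the 7 fall in 1 library, phd1-4 replicate 1, so the checks are not independent and that rate is no yardstick. This library had the lowest TMM factor of those tested (0.937), and the CPM values are not TMM-scaled. The value in the named library is given first and the range of the other 5 after it. In phd1-4 replicate 1, MOM1 was at 15.7 CPM (others 19.8 to 20.5), AT1G30720 at 15.3 CPM (17.2 to 18.4), HKL1 at 18.5 CPM (20.2 to 21.2), AT3G01190 at 50.5 CPM (63.1 to 67.2) and PHD2 at 26.7 CPM (35.2 to 40.3). In phd1-4 replicate 2, EP3 was at 11.2 CPM (8.97 to 9.56). In phd1-2 replicate 1, PIAL2 was at 13.9 CPM (10.3 to 11.6).

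MRD1 differed between the phd1 lines, lower in phd1-4 than in phd1-2 by a log2 fold change of -5.49 (edgeR adjusted p = 0.0147).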

How the results depend on the processing

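The number of features called, 8, moved with several settings. It was 41 with the replicate block, 14 with no filter, 29 in DESeq2, 30 in DESeq2 with the replicate block, 37 in limma-voom with the replicate block, 3 with phd1-2 libraries alone, 4 with phd1-4 libraries alone, and 52 and 25 for the same 2 settings with the replicate block. It stayed within 1.5 times under RLE scaling (7), the stricter filter (8), limma-voom (10), the 2-group fit (8) and all libraries in 1 fit (7). Leaving out 1 library gave 2 (without mom2-2 replicate 1) to 15 (without phd1-2 replicate 1), with 3 without mom2-2 replicate 2, 4 without phd1-2 replicate 3, 5 without phd1-2 replicate 2 or phd1-4 replicate 3 and 13 without phd1-4 replicate 2. With the block, against 41, it gave 13 (without mom2-2 replicate 3) to 58 (without phd1-2 replicate 1), with 19 without phd1-4 replicate 1 and 21 without phd1-2 replicate 3 or phd1-4 replicate 3. Between phd1-4 and phd1-2 the 1 call became 11 with the replicate block and 2 with no filter, and 0 (without phd1-2 replicate 3 or phd1-4 replicate 2) to 3 (without phd1-4 replicate 3) when 1 library was left out. Called genes with peaks, 2 for PHD1-FLAG and 5 for PIAL2-Myc, became 1 and 3 with the gene body alone.

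Of 32 alternatives each, AT1G43590 and AT1TE54100 passed in all, AT5G26270 missed the threshold in 2, MOM2 in 6, MRD1 in 11, AT5G52070 in 10, AT1G60110 in 12 and CYP82C2 in 13. MRD1 reversed to -0.0328 against phd1-2 libraries alone, with and without the replicate block. PHD1, which did not differ, went to -0.00083 against phd1-4 alone with the replicate block, to -0.0120 without mom2-2 replicate 3 with the block, and ran from -0.0618 to 0.104 when 1 library was left out. The causes of these shifts were not tested. Of the depth, 13164594 expected counts in the shallowest library limit the values of features near 1 CPM.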

Other observations

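The iron homeostasis list holds genes that seedlings turn on when iron runs short and some that act the other way. Of 13 tested, 12 were above 0 in mom2-2 against phd1, with a median log2 fold change of 0.49. None passed in edgeR, DESeq2 or limma-voom, with or without the block. Under an unadjusted p of 0.05 in edgeR there were 0 without the block, and 5 higher and 1 lower with it. BHLH100, a transcription factor of this response, had 15.4, 4.38 and 117.0 CPM in mom2-2, against 47.8, 4.63 and 12.5 CPM in phd1-2 and 17.2, 1.37 and 13.6 CPM in phd1-4. The iron transporter IRT1 had 42.6, 16.2 and 121.3 CPM in mom2-2, against 72.5, 23.5 and 57.1 CPM in phd1-2 and 40.8, 10.8 and 43.1 CPM in phd1-4. In both genes the mom2-2 replicate 3 library was the highest of the 9 and replicate 2 was the lowest of each genotype.

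Jasmonate and wound genes were lower on balance. Of 11 tested, 10 were below 0 in mom2-2, with a median of -0.57 beside -0.00621 over all features. Without the block none passed in edgeR, DESeq2 or limma-voom, with 4 under an unadjusted p of 0.05 in edgeR. With the block 2 passed in DESeq2, both lower, and 0 in edgeR or limma-voom. In edgeR with the block 6 were under an unadjusted p of 0.05, all lower. LOX2, a lipoxygenase of jasmonate synthesis, had 129.6, 93.7 and 125.6 CPM in mom2-2, against 410.0, 91.6 and 316.0 CPM in phd1-2 and 166.0, 124.0 and 115.5 CPM in phd1-4. VSP2, a vegetative storage protein induced by jasmonate, had 105.9, 127.3 and 124.1 CPM in mom2-2, against 233.7, 168.8 and 287.8 CPM in phd1-2 and 221.0, 126.5 and 145.7 CPM in phd1-4. The higher phd1 values came mostly from phd1-2 replicates 1 and 3.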
